A study of Canis lupus familiaris with 20 samples.

Results

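The HOXA-type cluster is a group of neighbouring genes on dog chromosome 14, read here in vertebral cartilage of dogs with the lysosomal storage disease mucopolysaccharidosis VII (MPS VII) and of unaffected dogs. Its members are the rows of the count table on chromosome 14 whose first exon base lies from 40200000 to 40450000 (genome build CanFam3.1) and that hold at least 10 counts over all libraries. This rule took 14 of 18 rows in the window, out of 24580 genes in the table. The members were chosen by position and by these totals, which ran down to 22 and 24 counts just inside the limit, and to 6 and 4 counts just outside it. Position is the only ground for the cluster's name. None of the table's identifiers (0 of 24580) is paired with a symbol in the RefSeq table for the assembly UU_Cfam_GSD. That table lists 11 HOXA genes on chromosome 14, between SKAP2 on one side and EVX1 and HIBADH on the other. The window holds 11 rows with several exons on the minus strand, but no row was assigned to a named HOXA gene.

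HOX genes encode transcription factors that bind DNA through a homeodomain. They lie in clusters, and their order along the chromosome follows the order of the body regions in which they are active, so genes at one end mark anterior levels and genes at the other end posterior levels. In the axial skeleton they set the identity of vertebrae. Skeletal cells keep part of this positional code after birth.

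The tissue was epiphyseal cartilage next to the growth plate of the T12 vertebra, with the cranial and caudal ends of each animal combined into 1 sample. Affected dogs were homozygous for a missense change in GUSB, the gene of the lysosomal enzyme beta-glucuronidase, and controls were heterozygous, so every animal carried the change at least once. The groups were 5 control and 5 MPS VII dogs at postnatal day 9, and 5 control and 5 MPS VII dogs at postnatal day 14. No drug or other treatment is named. Controls came from the same litters as affected dogs, but the labels give neither the litter nor the sex of an animal. By its label each library stands for 1 dog. Replicate numbers are not from the labels: they follow the order of the samples in the series within each group and pair no animals. Libraries of day 9 held 21419930 to 28028365 counts and those of day 14 held 15772761 to 22471728, so age and depth went together. MPS VII day 9 replicate 3 stood apart from its group in the most abundant member, and results that rest on it are given with and without it. The level of GUSB and the markers of cartilage, bone, blood and vessel cells were not checked here, since symbols could not be matched. In whole tissue, fewer cells of a type and less RNA per cell cannot be told apart.

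The rows are numbered 1 to 18 in order along the chromosome, and members keep these numbers. Gene 1 (40267026 to 40269681, minus strand, 2 exons, 449 counts) opens the window. It is followed by 4 short rows of 1 exon on the plus strand: gene 2 (40269893 to 40270017, 24 counts), gene 3 (40272639 to 40272852, 37 counts), gene 4 (40273585 to 40273685, 60 counts) and gene 5 (40273695 to 40273840, 48 counts). Gene 6 (40274469 to 40276831, 2 exons, 333 counts), gene 7 (40276904 to 40296147, 3 exons, 1299 counts) and gene 8 (40302816 to 40304321, 2 exons, 440 counts) lie on the minus strand. The middle of the cluster holds gene 9 (ENSCAFG00000002950, 40315639 to 40318577, 5438 counts), gene 10 (40319706 to 40321800, 933 counts), gene 11 (ENSCAFG00000002957, 40329127 to 40330842, 1054 counts) and gene 12 (40337999 to 40339923, 659 counts), each with 2 exons on the minus strand. The last members are gene 13, a row of 85 bases and 1 exon (40343993 to 40344077, 22 counts), and gene 14 (40346462 to 40348900, 2 exons, 98 counts). No rows of the window overlapped (0 pairs). Coordinates run from the first to the last exon base, and the file does not mark coding parts or UTRs.

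Among the 9 members with several exons, levels were highest in 4 neighbouring genes in the middle of the cluster and lowest in gene 14 at its far end. Levels of different genes are compared as RPKM, here CPM (counts relative to the scaled library total) per kb of exon. Over all 20 libraries gene 9 stood highest at a mean level of 6.35 RPKM, followed by gene 11 at 3.36, gene 10 at 3.02 and gene 12 at 1.82. Gene 8, on the other side, stood at 1.06 RPKM. Genes 1, 7 and 6 were lower, at 0.477, 0.451 and 0.444 RPKM, and gene 14 had 0.177. The 5 members of 1 exon, 85 to 214 bases long, stay out of this order, since their levels rest on 22 to 60 counts over all libraries. They stood at 0.435 (gene 2), 0.372 (gene 3), 1.36 (gene 4), 0.740 (gene 5) and 0.630 RPKM (gene 13). Gene 9 was above gene 11 in 19 of 20 libraries, gene 10 above gene 12 in 18, gene 12 above gene 8 in 18, gene 8 above gene 1 in 17, and gene 6 above gene 14 in 19. Neighbours in this order that did not separate were genes 11 and 10 (13 of 20 libraries), genes 1 and 7 (10 of 20) and genes 7 and 6 (9 of 20).

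Beyond gene 14 the window was almost silent. Gene 15 (40355914 to 40359991) had 0 counts in every library, which allows a level of up to 0.00687 CPM at 3 counts over all libraries, counting error only. Gene 16 (40371987 to 40374898) had 4 counts, all in MPS VII day 9 replicate 3. Gene 17 (40397673 to 40397780) had 6 counts and gene 18 (40418589 to 40422046), the only row with several exons on the plus strand, had 2. These 4 rows held 12 of 440081041 counts and are no members.

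**Figure D1:**
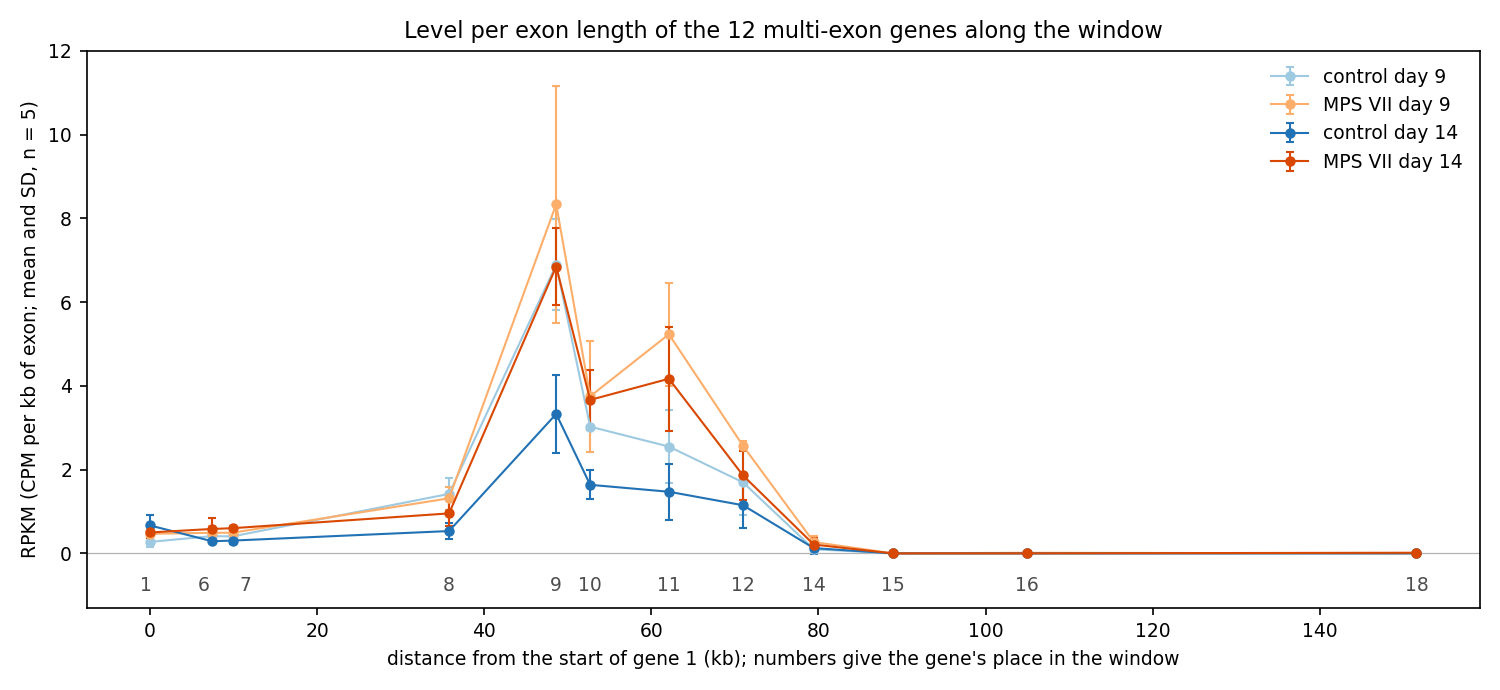
Level per exon length (RPKM, vertical axis, mean and SD of 5 libraries) of the 12 rows with several exons against their distance in kb from the start of gene 1, with a line for each of the 4 groups. The level peaks at gene 9 in every group and is near 0 from gene 15 on, and control day 14 is the lowest line from gene 6 to gene 12.

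The summed level of the 14 members, of which gene 9 alone gave 38.7% to 61.2% of the counts, was lowest in control cartilage of day 14. It ran from 21.4 to 28.5 CPM in control day 9 libraries (mean 24.8 ± 2.65, SD, n = 5) and from 27.5 to 42.6 in MPS VII day 9 libraries (32.04 ± 6.05), or to 31.2 without replicate 3 (29.4 ± 1.65, n = 4). It ran from 11.6 to 19.4 CPM in control day 14 libraries (14.7 ± 3.18) and from 24.97 to 31.5 in MPS VII day 14 libraries (28.2 ± 2.83). All 5 control day 14 libraries thus lay below the other 15. That separation from control day 9 rests on edgeR's scaling factors: as CPM of plain library totals, control day 14 ran from 13.7 to 22.5 and control day 9 from 20.2 to 21.9, so the ages overlapped, while MPS VII day 9 (24.5 to 50.3) and day 14 (26.6 to 31.9) stayed above both. Gene 1 did not follow the sum and had its highest mean, 1.45 CPM, in control day 14. Gene 9 alone gave 45.6% to 58.5% of the cluster's counts in control day 9 libraries, 42.1% to 61.2% in MPS VII day 9 (to 49.5% without replicate 3), 38.7% to 48.3% in control day 14 and 42.6% to 53.2% in MPS VII day 14.

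Of the 14 members, 8 passed the filter on low counts and were tested (genes 1, 6, 7, 8, 9, 10, 11 and 12), and they held 97.3% of the members' counts. The test was edgeR's quasi-likelihood test over all 14550 genes that passed, with Benjamini-Hochberg adjustment and a threshold of 0.05, and changes are fitted log2 fold changes, given as log2 changes with their SE.

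The comparison of affected with control dogs at day 14 may be what drew attention to the cluster: genes 9, 10 and 11, which its definition names, all stood higher in MPS VII there. Values of these genes in the comparisons that use day 14 libraries are therefore a description, with no p. Gene 9 had 6.98, 9.37, 5.56, 4.50 and 6.14 CPM in the control libraries of day 14 and 13.5, 11.3, 14.6, 15.6 and 11.98 CPM in the affected ones. Every affected library lay above every control library, with a log2 change of 1.04 ± 0.20. Gene 10 had 1.37, 1.15, 1.30, 0.750 and 1.17 CPM in controls and 3.08, 2.57, 2.01, 3.07 and 2.13 CPM in affected dogs. Again the groups did not overlap, and the log2 change was 1.16 ± 0.26. Gene 11 had 0.645, 1.78, 0.737, 0.797 and 1.34 CPM in controls and 3.95, 3.33, 1.62, 3.44 and 2.67 CPM in affected dogs, a log2 change of 1.499 ± 0.32. Here 4 of 5 affected libraries were above all controls, and MPS VII day 14 replicate 3 fell inside the control range.

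Gene 7 was higher in affected than in control dogs of day 14 as well. The cluster's definition does not name this gene or the others of this paragraph, but their p-values come from the same libraries and comparison. They are therefore no independent support for a change of the cluster. It had 1.94, 2.88, 2.10, 1.83 and 1.47 CPM in controls and 4.27, 3.81, 3.85, 4.40 and 3.78 CPM in affected dogs. The groups did not overlap, and the log2 change was 0.98 ± 0.23 (edgeR adjusted p = 0.00400; 6.14e-04 to 0.0162 over its alternatives). The remaining tested members did not pass. Gene 6 reached 1.001 CPM ± 0.451 in affected dogs against 0.497 ± 0.0447 in controls (SD, n = 5 each), a log2 change of 1.00 ± 0.38 (edgeR adjusted p = 0.0634), but MPS VII day 14 replicate 4 had 0.318 CPM, below every control. Gene 8 had a log2 change of 0.85 ± 0.34 (edgeR adjusted p = 0.0828) and gene 12 of 0.69 ± 0.34 (0.159 as the edgeR adjusted p). Each of these 3 passed in only 1 of 10 refits with 1 library left out. Gene 6 did so without MPS VII day 14 replicate 4 (edgeR adjusted p = 0.0159) and gene 8 without MPS VII day 14 replicate 5 (0.0294). Gene 12 did so without control day 14 replicate 1 (0.0426). In other refits the edgeR adjusted p rose to 0.150 for gene 6, 0.212 for gene 8 and 0.364 for gene 12. Gene 1 was the exception in direction, at 1.45 CPM ± 0.561 in controls and 1.09 ± 0.288 in affected dogs, with a log2 change of -0.42 ± 0.34 (edgeR adjusted p = 0.413).

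In all, 4 of 8 tested members were called at day 14, all higher, where 22% of all tested genes were called and 11.3% were called higher. Libraries did not overlap in 3 of 8 members, against 19.1% of all genes. The median log2 change of the tested members was 0.99, beside 0.03 over all genes. This comparison overlaps with what chose the cluster, so the counts are a description. With TMM scaling replaced by library totals the median of all genes became -0.11 and that of the members 0.84, and the same number of members was called.

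**Figure D2:**
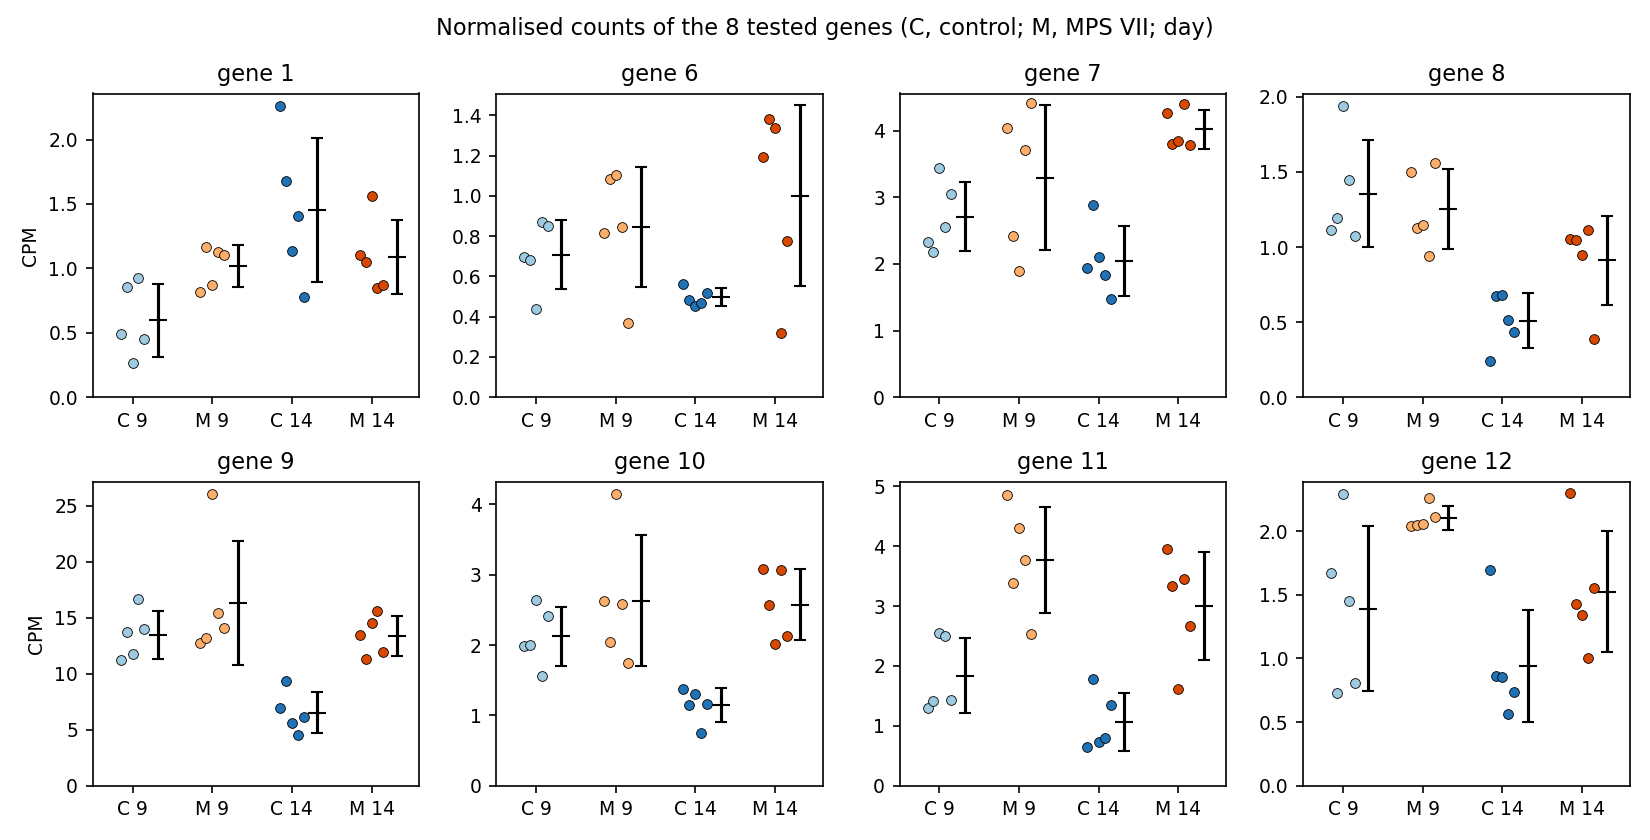
CPM (vertical axis, from 0, a scale of its own in each panel) of the 8 tested members in the 20 libraries, with C for control, M for MPS VII and the postnatal day below. Points are libraries and the bar beside them is the mean and SD of 5. Genes 9 and 10 have their 5 control day 14 libraries below all others, while gene 1 has its highest library there.

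The comparison at day 9 set only day 9 libraries against each other, while filter, scaling and spread came from the fit over all 20 libraries. Only gene 11 passed the test. It had 1.29, 1.41, 2.55, 2.49 and 1.43 CPM in controls and 4.86, 3.38, 4.31, 3.76 and 2.53 CPM in affected dogs, so 4 of 5 affected libraries lay above all controls. The log2 change was 1.04 ± 0.30 (edgeR adjusted p = 0.0335; 0.00879 to 0.0966 over its alternatives). With only the day 9 groups fitted, the log2 change was 1.04 and the edgeR adjusted p was 0.0460. The call was lost without control day 9 replicate 1, 2 or 5 and without MPS VII day 9 replicate 1 or 3, with edgeR adjusted p of 0.0966, 0.0916, 0.0839, 0.0728 and 0.0555 in that order, at log2 changes of 0.94 to 0.99.

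In the most abundant member the difference at day 9 was no larger than the spread. Gene 9 had 11.3, 13.7, 11.8, 16.6 and 13.97 CPM in controls and 12.8, 13.2, 26.0, 15.4 and 14.1 CPM in affected dogs. One affected library, replicate 3, lay far above all others, and the rest overlapped with controls. The log2 change of 0.28 ± 0.19 (edgeR adjusted p = 0.415) went to 0.04 without that library. Gene 10 gave 0.31 ± 0.25 (edgeR adjusted p = 0.484), and 0.08 without the same library. Gene 12 was tightly grouped in affected dogs at 2.04 to 2.26 CPM, against 0.726 to 2.29 in controls, with a log2 change of 0.59 ± 0.33 (edgeR adjusted p = 0.288). Gene 1 had a log2 change of 0.78 ± 0.35 (edgeR adjusted p = 0.188). Genes 6, 7 and 8 had 0.26 ± 0.37, 0.28 ± 0.23 and -0.11 ± 0.32. Thus 1 of 8 tested members was called, beside 8.38% of all genes (6.18% higher), and none (0 of 8) had groups that did not overlap, beside 8.09% of all genes. Log2 changes above 0 were found in 7 of 8 members, where the median of all genes was 0.02. With library totals as the scale there were 8 of 8, as gene 8 turned to 0.03, but the median of all genes rose to 0.15 as well. The share of all genes above 0 was not counted, so these counts are a description.

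With age, gene 8 fell and gene 1 rose in control cartilage. Gene 8 had 1.12, 1.20, 1.94, 1.45 and 1.07 CPM at day 9 and 0.242, 0.672, 0.680, 0.516 and 0.432 CPM at day 14. The ages did not overlap, and the log2 change was -1.42 ± 0.34 (edgeR adjusted p = 0.00204; 3.21e-04 to 0.0215 over its alternatives). Gene 1, the first row of the cluster, had 0.488, 0.854, 0.264, 0.928 and 0.448 CPM at day 9 and 2.26, 1.68, 1.13, 1.41 and 0.778 CPM at day 14. Here 4 of 5 older libraries were above all younger ones, and the log2 change was 1.29 ± 0.35 (edgeR adjusted p = 0.00518; 5.45e-04 to 0.0231 over its alternatives). These are low levels, with 6 to 20 counts per library for gene 1 at day 9 and 6 to 14 for gene 8 at day 14.

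Genes 9 and 10 stood lower at day 14 in controls. The control libraries of gene 9 listed above, at 11.3 to 16.6 CPM on day 9 and 4.50 to 9.37 on day 14, gave a log2 change of -1.05 ± 0.20. Those of gene 10, at 1.57 to 2.64 CPM and 0.750 to 1.37, gave -0.89 ± 0.26. In both genes all libraries of day 14 were below all of day 9 on the scale with edgeR's factors. On plain library totals the ages overlapped, at 9.85 to 12.6 and 5.55 to 10.8 CPM in gene 9 and at 1.19 to 2.21 and 0.924 to 1.77 in gene 10. Gene 11 had a log2 change of -0.78 ± 0.32, was not called, and its ages overlapped. Genes 6, 7 and 12 did not pass, at -0.50 ± 0.38, -0.41 ± 0.23 and -0.55 ± 0.34 (edgeR adjusted p = 0.308, 0.167 and 0.195).

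By count, 3 of 8 tested members were called lower and 1 higher with age in controls, where 42.5% of all genes were called, 20.7% lower and 21.8% higher. Libraries of the 2 ages did not overlap in 3 of 8 members, all lower at day 14, against 38.4% of all genes (18.2% lower). The share of called members is thus near that of all genes, and the control day 14 libraries are also those of the genotype comparison at that age. The scaling factors of edgeR, 0.760 to 1.02 in control day 9 and 1.04 to 1.29 in control day 14 libraries, moved with age. Without them the median log2 change of all genes went from -0.06 to 0.37. Relative to that median, gene 9 was at -0.99 with the factors and -0.98 without, gene 8 at -1.36 and -1.37, and gene 1 at 1.35 and 1.38. On the plain scale gene 10 was no longer called (-0.47), gene 7 turned to 0.02, and 3 members were called in all.

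In MPS VII cartilage none of the 8 tested members was called with age (0 by edgeR's test, 0 at an unadjusted p under 0.05 and 0 by DESeq2), where 22.7% of all genes were called. Gene 9 stood at 16.3 CPM ± 5.54 at day 9 and 13.4 ± 1.78 at day 14, a log2 change of -0.28 ± 0.20, and of -0.03 without MPS VII day 9 replicate 3. Gene 10 was at 2.63 CPM ± 0.926 and 2.57 ± 0.503, with -0.03 ± 0.25. Gene 11 gave -0.32 ± 0.30. Among the others, gene 1 had 1.02 CPM ± 0.162 and 1.09 ± 0.288, with a log2 change of 0.09 ± 0.34 (edgeR adjusted p = 0.869). Gene 8 had -0.46 ± 0.32 (edgeR adjusted p = 0.308) and gene 12 -0.46 ± 0.33 (0.314 as the edgeR adjusted p). Genes 6 and 7 had 0.24 ± 0.36 and 0.29 ± 0.23.

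Whether the age change differed between genotypes was tested directly, and no tested member passed (0 of 8 by edgeR and 0 by DESeq2), where 3.26% of all genes did. At an unadjusted p under 0.05 there were 4 (genes 1, 7, 9 and 10), the weakest being gene 7 (edgeR unadjusted p = 0.0448). Gene 7 ranked 2524 by p among the 14550 tested genes, so at least 2524 genes reached that threshold. The exact share of all genes was not counted, and the 4 are a description. Genes 9 and 10 may also have drawn attention to the cluster. The fitted difference, MPS VII minus control on the log2 scale, was 0.76 ± 0.28 for gene 9 and 0.85 ± 0.35 for gene 10. It was 0.96 ± 0.47 for gene 8 (edgeR adjusted p = 0.279), 0.70 ± 0.33 for gene 7 (0.258 as the adjusted p) and -1.20 ± 0.49 for gene 1 (0.179 as the adjusted p). Gene 6 had 0.74 ± 0.53, gene 11 0.46 ± 0.43 and gene 12 0.09 ± 0.47. A fall in controls that passed in gene 8, and a rise that passed in gene 1, are therefore not shown to differ from the values in affected dogs. Gene 9 was called in this comparison in the refits without MPS VII day 9 replicate 3 and without control day 14 replicate 2, at 0.997 and 0.948, which is no independent test since its day 14 values may have drawn attention to the cluster.

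**Figure D3:**
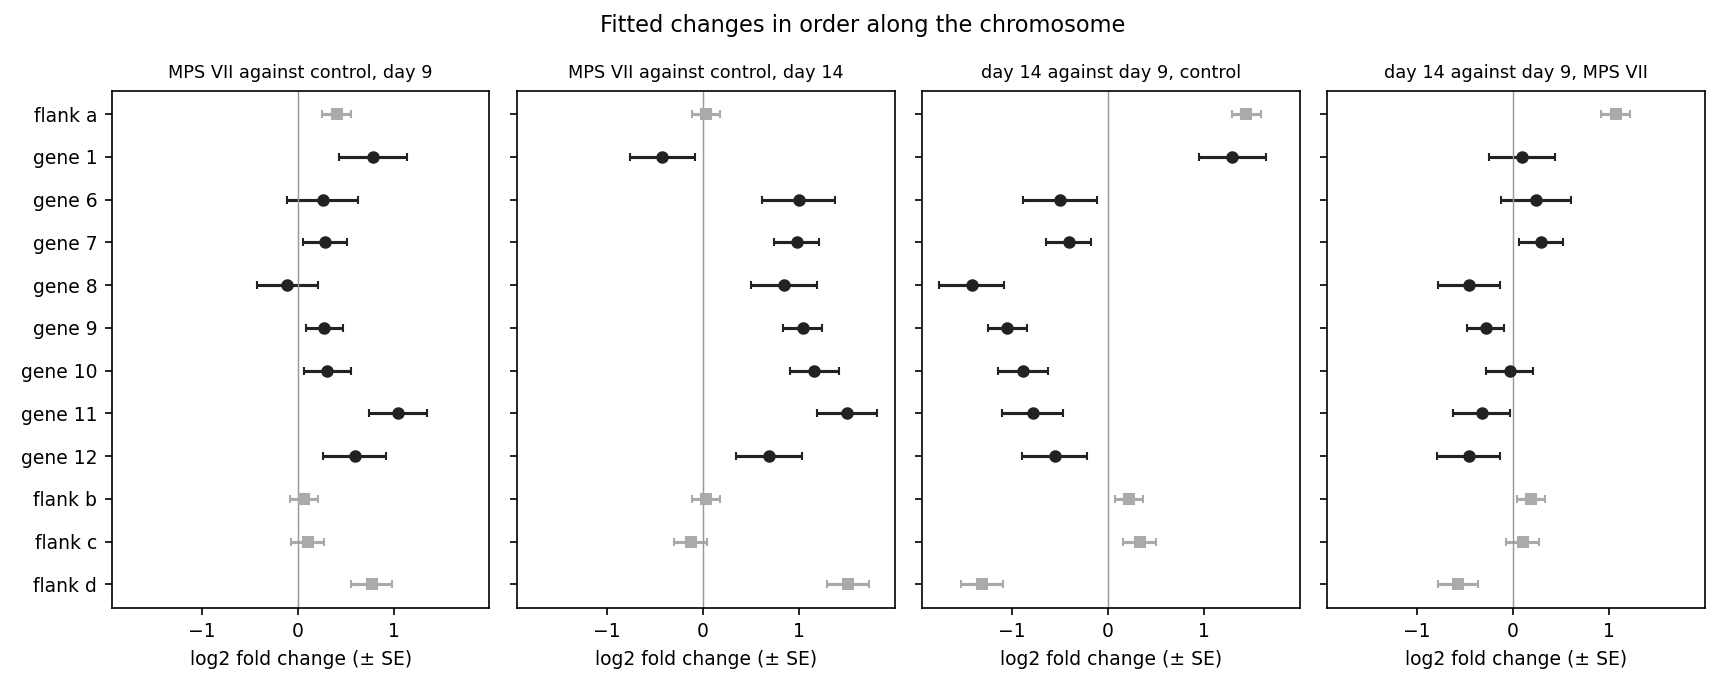
Fitted log2 changes with SE (horizontal axis) of the 8 tested members (black circles) and of the 4 tested genes within 500 kb on either side (grey squares, flank a to d) in order along the chromosome, for 4 comparisons. At day 14 the members from gene 6 to gene 12 lie right of 0, from 0.69 to 1.499, and gene 1 lies left of it at -0.42, while flanks a, b and c lie within 0.13 of 0 and flank d lies at 1.51.

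Members outside the test held 22 to 98 counts each, with mean levels of at most 0.22 CPM over all libraries. Gene 14, the last row of the cluster with several exons that was detected, had 15 counts over the control libraries of day 9, 38 over MPS VII day 9, 18 over control day 14 and 27 over MPS VII day 14. Its libraries ran from 0 to 0.256, 0.158 to 0.552, 0 to 0.403 and 0.0476 to 0.505 CPM in those groups, which all overlapped. The single-exon rows between gene 1 and gene 6 were found in 9 (gene 2), 11 (gene 3), 18 (gene 4) and 16 (gene 5) of 20 libraries, and gene 13 in 9. Gene 4, with 10, 19, 18 and 13 counts over the same groups, was the best covered of these relative to its 101 bases. Differences between groups were not tested in the main fit for these rows, for want of counts.

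Of the 4 tested genes around the cluster, 3 were not called between genotypes at day 14 and 1 was. Within 500 kb on either side of the window lay 6 rows, of which 4 had enough counts and were tested. The nearest before it, on the minus strand from 39913427 to 40092188, rose with age in both genotypes, by 1.44 ± 0.15 in controls and 1.07 ± 0.15 in MPS VII on the log2 scale (edgeR adjusted p = 2.29e-07 and 2.03e-05), and had 0.03 ± 0.14 between genotypes at day 14. The next 2 after it, from 40673084 and from 40853017, did not pass in any of the comparisons, with log2 changes of -0.23 to 0.33. The last, on the minus strand from 40941892 to 41202548, had 15.1 CPM ± 2.28 in control day 9, 25.6 ± 11.2 in MPS VII day 9, 6.07 ± 1.49 in control day 14 and 17.3 ± 2.78 in MPS VII day 14. It was called higher in MPS VII at day 14 by 1.51 ± 0.22 (edgeR adjusted p = 3.82e-05) with no overlap of libraries, and lower with age in controls by -1.31 ± 0.22 (edgeR adjusted p = 7.97e-05). Unlike gene 9 it was also called higher in MPS VII at day 9, by 0.77 ± 0.21 (edgeR adjusted p = 0.0249), with 4 of 5 affected libraries above all controls. Its MPS VII day 9 group held 44.9 CPM in replicate 3 and 17.6 to 26.0 in the rest. Without that library the day 9 change was 0.46 ± 0.16 and was not called (edgeR adjusted p = 0.0762), while MPS VII minus control in the age change went from 0.74 ± 0.30 (edgeR adjusted p = 0.188) to 1.04 ± 0.22 (0.00811 as the adjusted p). In this gene and in gene 9 the mean was highest in MPS VII day 9 and lowest in control day 14. Without replicate 3 the MPS VII day 9 means were 20.8 CPM ± 3.62 here and 13.9 ± 1.18 in gene 9 (SD, n = 4), the latter beside 13.5 in control day 9 and 13.4 in MPS VII day 14, so in gene 9 those groups differed by less than their spread.

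Among 14542 tested genes outside the window, the 3 whose log2 CPM followed gene 9 most closely over the 20 libraries lay on other chromosomes. They were a single-exon row on chromosome 24 from 43590339 to 43591082 (Pearson r = 0.95), a gene on chromosome 11 from 36514166 to 36950741 (r = 0.945) and a gene on chromosome 24 from 18224919 to 18296350 (r = 0.93). The one on chromosome 11 had 18.1 CPM ± 2.19 in control day 9, 24.3 ± 4.57 in MPS VII day 9, 8.31 ± 1.32 in control day 14 and 19.02 ± 1.40 in MPS VII day 14. The neighbour starting at 40941892 ranked 20 in this list with an r of 0.899. These correlations describe libraries that share group and depth. Without MPS VII day 9 replicate 3 the first 3 were 0.941, 0.944 and 0.923.

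Over the 28 pairs of tested members, deviations of log2 CPM from the group means had a median correlation of 0.04 (range -0.46 to 0.47, 20 libraries, 18 pairs above 0). The highest was that of the neighbours gene 9 and gene 10, at 0.47, which went to 0.23 without MPS VII day 9 replicate 3.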

How the data were processed

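The members and comparisons were chosen with earlier results of these data known. The deposited file gives raw counts for each gene in 20 libraries beside exon positions and exon length, per the file headers, and 0 count columns belonged to no sample. Libraries came from a stranded mRNA kit and reads were aligned to CanFam3.1, per the labels' protocols, using Ensembl build 77. Among the tools in the submitters' processing notes are STAR 2.4.0j and HTSeq. How strand and reads matching several places were handled in counting is not known here, so near-identical homeobox exons and rows close together on opposite strands are uncertain. Even numbers made up 65.2% to 76.4% of counts above 0 and under 200 per library, as when both mates of a pair are counted, and fits were repeated on halved counts.

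The counts went into edgeR 4.0.16 (R 4.3.3) with filterByExpr, TMM scaling, 1 mean per group over 20 libraries and a robust quasi-likelihood fit. The fit was also run on counts simulated from edgeR's own estimates of spread, with changes planted in MPS VII day 9 only. That run looked at the genotype comparison at day 9 and at none of the others. SE is the absolute log2 change over the root of F. Correlations used log2 CPM with a prior count of 2. No 2 libraries of a group were copies (chi-square per gene 16.7 to 607, 40 pairs). The genes named are all members, the tested neighbours within 500 kb, and the 3 genes most correlated with the most abundant member. Lists of cell type markers and HOX cofactors were not used, for want of symbols. Alternatives were RLE scaling, DESeq2 1.42.0, no filter, halved counts, only the groups compared, each library left out, and library totals without TMM, which was added after the data were seen. P-values set the difference between groups against the spread between these animals, and take no account of litter.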

Additional observations from a re-analysis of the deposited data

Results flagged for a closer look

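In 3 of 32 sets of 5 libraries (8 tested members in 4 groups), 1 library lay far from the rest by Dixon's criterion, which chance alone meets in about 1 of 20 sets. Gene 9 (from 40315639) had 26.0 CPM in MPS VII day 9 replicate 3, while its group otherwise had 12.8 to 15.4. Gene 8 (from 40302816) had 0.388 CPM in MPS VII day 14 replicate 5, while the others had 0.949 to 1.11. Gene 12 (from 40337999) had 1.69 CPM in control day 14 replicate 1, where the others had 0.563 to 0.865.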

How the results depend on the processing

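The number of tested members called was 1 at day 9 and 4 at day 14 between genotypes, 4 with age in controls, 0 with age in MPS VII and 0 when the age changes of both genotypes were compared. Under RLE scaling, no filter, halved counts and a fit of only the groups compared these numbers were the same. DESeq2 gave 5 with age in controls, where gene 11 passed, and library totals gave 3; both gave the same numbers otherwise. Leaving out 1 library gave 0 to 1, 4 to 5, 4 to 5, 0 to 0 and 0 to 1 in the same order. Among these, calls of genes 9, 10 and 11 in comparisons that use day 14 libraries stay a description, as above. Signs turned in values that were never called. Gene 10 with age in MPS VII became 0.00142 without a filter, 0.00992 with halved counts and 0.0646 with library totals, and ran from -0.15 to 0.21 with 1 library left out. With library totals gene 8 at day 9 became 0.0308, gene 7 with age in controls 0.0200 and gene 12 in the difference -0.20. With 1 library left out gene 8 at day 9 ran from -0.20 to 0.0571, gene 1 with age in MPS VII from -0.0405 to 0.21, and gene 12 in the difference from -0.16 to 0.43. With library totals, a scaling tried after the values were seen, the summed level of the members in control day 9 went from 24.8 to 21.3, by more than its SD, and those of the other groups moved by less. Control day 9 had scaling factors of 0.760 to 1.02, which library totals leave out. Why the factors differed between groups was not tested. No paired analysis was possible because the labels give no replicate or litter numbers. Depth limits genes 1, 6 and 8 most among tested members, with 6 to 56 counts per library.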
